A study of Mus musculus with 6 samples.

Results

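The GDNF, nephronectin and Fras/Frem axis was described as 10 genes taken by name from the deposited table: Gdnf, Ret, Gfra1, Itga8, Itgb1, Npnt, Fras1, Frem1, Frem2 and Grip1. All 10 were found among 52386 genes, and all 10 were among the 25157 genes with normalized values. RNA was sequenced from GFP+ nephron progenitor cells sorted from kidneys of E18.5 mouse embryos, the offspring of CD-1 dams and Six2 Cre tg/+ sires, so that both groups carry the transgene driven by Six2. The control group (3 libraries) came from pregnancies on a control diet and the food-restricted group (3 libraries) from pregnancies restricted from plaque detection onward. The sample labels give the restricted intake as 30% and the series text as 70% of daily calories, and which of them was fed could not be settled. The design text calls the 3 libraries of a diet biological replicates. No label names the litter or the embryos behind a library, and each p-value therefore reflects only how far these libraries spread.

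In the fetal kidney, GDNF is secreted by the nephron progenitors and the mesenchyme around them, and it binds the receptor tyrosine kinase RET and its co-receptor GFRα1 on the ureteric bud, which then branches. Nephronectin, a bud basement membrane protein encoded by Npnt, is bound by integrin α8β1 on the mesenchyme, and mouse embryos without either protein lose or delay Gdnf expression and bud outgrowth. FRAS1, FREM1 and FREM2 form the Fraser complex, which holds nephronectin in that basement membrane, and GRIP1 is the adaptor that brings FRAS1 and FREM2 to the basal cell surface.

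Short coding stretches are shown for Npnt and the Fras/Frem genes. In Fras1, Frem2 and Npnt they hold motifs of a kind that partner proteins bind. The Frem1 stretch is given as the matching end of its gene, and no contact is named for it. Capitals mark the last 3 amino acid codons before the stop codon in the Fras/Frem genes, and the arginine, glycine and aspartate codons in Npnt, the motif that integrins such as α8β1 bind. The sequences were read 5′ to 3′ in the sense of the gene from GENCODE M21 transcripts on GRCm38.
Fras1: aacaatttacaagatgggACGGAAGTTtaa
Frem2: agccactacaacgacagcTCGGAGGTGtga
Frem1: cacaattttgtgtgctcaAGGAAACTCtga
Npnt: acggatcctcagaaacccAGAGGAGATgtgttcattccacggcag
The Fras1 stretch lies in exon 74 at chr5:96781742-96781771 on the plus strand and ends a protein of 4010 residues. The Frem2 stretch lies in exon 24 at chr3:53516532-53516561 on the minus strand and ends a protein of 3160 residues. Fras1 ends in threonine, glutamate and valine and Frem2 in serine, glutamate and valine, the kind of tail that PDZ domains such as those of GRIP1 bind. The Frem1 stretch lies in exon 36 at chr4:82900399-82900428 on the minus strand, and its protein of 2191 residues ends in arginine, lysine and leucine. The Npnt stretch is split by an intron between exons 10 and 11, within chr3:132891478-132904691 on the minus strand, and its capitals begin at residue 430 of 609. The arginine, glycine and aspartate motif is not particular to Npnt. The whole Fras1 and Frem1 proteins each hold 1 as well, outside the stretches shown, and Frem2 holds 0. Whether integrins bind it there was not tested.

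Total counts ranged from 6515127 to 16763479 per library, with food-restricted replicate 1 the shallowest. The summed normalized count of 8 nephron progenitor markers was 29163 to 29958 in the controls and 28174 to 29606 in the food-restricted libraries, with 1 of the 8, Meox1, called lower. With limma-trend on log2(normalized count + 1), 1193 genes were called at an adjusted p under 0.05, which is 4.74% of the genes tested; 563 (2.24%) were higher and 630 (2.5%) lower under food restriction. The balance depended on the scaling: 605 were higher and 581 lower with TMM, 648 and 563 with upper-quartile scaling, and 826 and 429 with scaling to the nephron progenitor markers, an alternative chosen after seeing the data. Leaving out control replicate 1, 2 or 3 gave 748, 766 or 765 called genes. Without food-restricted replicate 1, 2 or 3 the count was 1357, 736 or 564. Markers of some other cells differed between the diets. The summed counts of proximal tubule markers were 6059 to 6461 in the controls and 3384 to 3474 in the food-restricted libraries, and those of macrophages 87.9 to 106 and 194 to 218. The podocyte sums (533 to 553 and 514 to 575) and the endothelium sums (119 to 145 and 122 to 173) overlapped. Of 8 podocyte markers 1 was called lower, and of 6 endothelium markers 0 were called. Of 5 sex-linked genes, 4 Y-linked genes were lower and Xist was higher under food restriction, all called and without overlap between the diets. The part of sex in Frem1, Itga8 and the other called genes cannot be told apart from diet and was not tested. In these sorted pools, fewer cells of a type and less RNA per cell cannot be told apart.

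Under food restriction Frem1 rose by 23.0% and Itga8 fell by 12.1%, while the other 8 genes did not pass the test, Gdnf among them. The 2 called members of 10 stand against 4.74% of all genes. Of those 25157 genes, 11878 had a mean normalized count of at least 50, every member but Ret among them. The share of calls among genes of like level was not computed, and the members were chosen with earlier results of these data known. In the authors' deposited table the same 2 members had an adjusted p under 0.05, against 3.18% of its genes. The libraries did not overlap between diets for 3 members, Itga8, Frem1 and Frem2, against 19.7% of all genes. The median log2 fold change of the members was 0.09, and that of all genes tested was -0.0028.

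**Figure D1:**
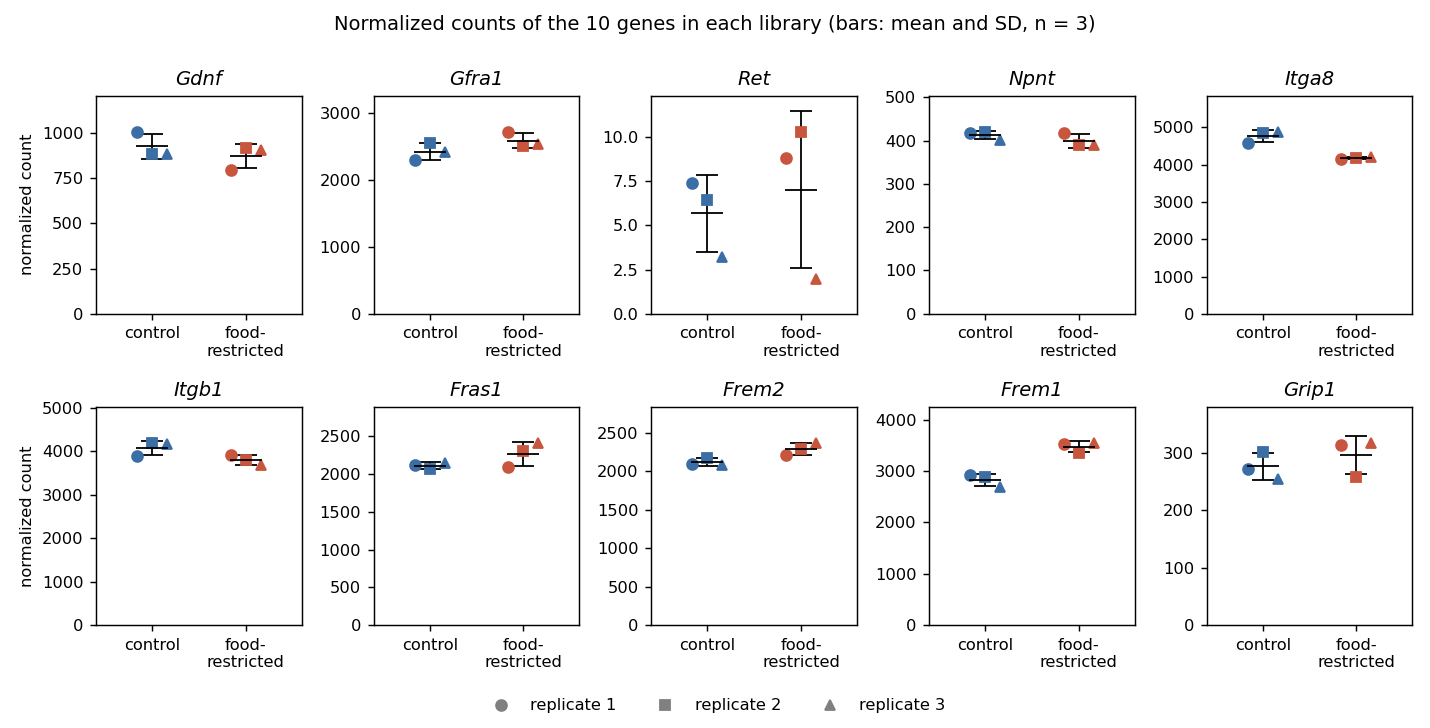
Normalized counts (vertical axes, each starting at 0) of the 10 genes in the 3 control and 3 food-restricted libraries, with bars for the mean and SD. Itga8 lies lower and Frem1 and Frem2 lie higher in all 3 food-restricted libraries, and the diets overlap for the other genes.

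Gdnf (ENSMUSG00000022144, GRCm38 chr15:7811011-7837575, plus strand), the secreted ligand, had normalized counts of 1006, 887 and 886 in the controls. The food-restricted libraries had 797, 915 and 906. The diets overlapped, with the highest value in control replicate 1 and the lowest in food-restricted replicate 1. The means were 926 ± 69.2 and 873 ± 65.3 (SD, n = 3 each), a log2 fold change of -0.09 with a standard error of 0.071 (limma adjusted p = 0.622). The 95% interval of the difference ran from -14.6% to 3.92%. The log2 fold change was -0.025 without control replicate 1 and -0.022 without food-restricted replicate 1, and -0.046 with marker scaling and -0.055 with limma-voom.

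Gfra1 (ENSMUSG00000025089, chr19:58235604-58455909, minus strand) encodes the co-receptor that presents GDNF to RET. Its normalized counts were 2302, 2551 and 2420 in the controls, against 2718, 2507 and 2536 under food restriction. Control replicate 2 lay within the food-restricted values. The log2 fold change was 0.09 with a standard error of 0.050 (limma adjusted p = 0.365), and the 95% interval ran from -0.408% to 14.4%. Without control replicate 1 or food-restricted replicate 1 it was 0.057 or 0.058. Ret (ENSMUSG00000030110, chr6:118151745-118197718, minus strand), the receptor itself and a gene of the ureteric bud in the kidney, was hardly detected. It had 8, 6 and 3 reads in the controls, against 5, 13 and 3 under food restriction, 38 reads in all. Its log2 fold change of 0.11 had a standard error of 0.624 (limma adjusted p = 0.966) and turned to -0.17 with limma-voom and to -0.19, -0.15 and -0.25 without control replicate 3, food-restricted replicate 1 or food-restricted replicate 2. No difference in Ret was detectable at this depth. The 12 ureteric bud markers summed to 599 to 656 in the controls and 468 to 553 in the food-restricted libraries, and 1 of them, Hoxb7, was called lower.

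Itga8 (ENSMUSG00000026768, chr2:12106632-12301922, minus strand) encodes the α8 subunit of the nephronectin receptor. Its normalized counts were 4574, 4845 and 4877 in the controls, against 4165, 4186 and 4216 under food restriction. Every food-restricted library lay below every control. The means were 4766 ± 167 and 4189 ± 25.3 (SD, n = 3 each), a log2 fold change of -0.19 with a standard error of 0.041 (limma adjusted p = 0.00194), and the 95% interval ran from -16.9% to -6.89%. The food-restricted libraries differed by 0.604% (coefficient of variation), less than the 1.599% that counting error alone gives at their depth. In the authors' deposited table the adjusted p was 5.17e-04. An antisense gene, E030013I19Rik, overlaps the span of Itga8 and held 53 to 162 reads per library. Gm37701, on the same strand, held 27 to 57. Whether their exons overlap those of Itga8 was not checked, and whether strand was used in counting is not stated in these sources. How far they bear on the Itga8 counts is therefore not known.

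Itgb1 (ENSMUSG00000025809, chr8:128685654-128733200, plus strand) encodes the β1 subunit, the partner of α8 and of many other α subunits. Its normalized counts were 3894, 4183 and 4164 in the controls, against 3903, 3798 and 3675 under food restriction. Control replicate 1 lay just below the highest food-restricted library. The log2 fold change was -0.11 with a standard error of 0.043; the 95% interval of -12.5% to -1.30% lies below 0, but the difference did not pass the adjustment over all genes (limma adjusted p = 0.179), and with marker scaling the log2 value was -0.065. Npnt (ENSMUSG00000040998, chr3:132881745-132950291, minus strand), the ligand of α8β1, had normalized counts of 418, 420 and 401 in the controls, against 417, 390 and 390 under food restriction. The diets overlapped, and the log2 fold change was -0.05 with a standard error of 0.091 (limma adjusted p = 0.868; 95% interval -14.8% to 9.58%). It was -0.082 and -0.033 without food-restricted replicate 1 or 2, and -0.010 with marker scaling.

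Frem1 (ENSMUSG00000059049, chr4:82897920-83052339, minus strand) encodes the Fraser complex member that mesenchymal cells secrete. Its normalized counts were 2913, 2879 and 2685 in the controls, against 3533, 3350 and 3540 under food restriction. Every food-restricted library lay above every control. The means were 2826 ± 123 and 3474 ± 108 (SD, n = 3 each), a log2 fold change of 0.30 with a standard error of 0.046 (limma adjusted p = 4.49e-06), and the 95% interval ran from 15.4% to 31.1%. In the authors' deposited table the adjusted p was 1.66e-07. The 12 renal stroma markers, genes of the neighbouring mesenchyme, summed to 3089 to 3140 in the controls and 3554 to 3828 in the food-restricted libraries, with 4 of 12 called higher; their part in the Frem1 difference was not tested.

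Fras1 (ENSMUSG00000034687, chr5:96373955-96784728, plus strand) encodes the transmembrane core of the complex. Its normalized counts were 2115, 2063 and 2153 in the controls, against 2097, 2307 and 2409 under food restriction. Food-restricted replicate 1 lay among the controls and the other two lay above them. The log2 fold change was 0.10 with a standard error of 0.052 (limma adjusted p = 0.329; 95% interval -0.084% to 15.5%). It was 0.160 and 0.060 without food-restricted replicate 1 or 3, and 0.050 with the gene length trend removed. Frem2 (ENSMUSG00000037016, chr3:53513938-53657355, minus strand), the second transmembrane member, had 2091, 2174 and 2087 in the controls, against 2206, 2292 and 2365 under food restriction. The diets did not overlap, and the log2 fold change was 0.11 with a standard error of 0.051; the 95% interval of 0.703% to 15.9% lies above 0, but the difference did not pass the adjustment over all genes (limma adjusted p = 0.249), and with the gene length trend removed the log2 value was 0.069. Grip1 (ENSMUSG00000034813, chr10:119453830-120087261, plus strand), the PDZ adaptor, had 272, 302 and 255 in the controls, against 313, 258 and 317 under food restriction. Its diets overlapped, with a log2 fold change of 0.10 and a standard error of 0.109 (limma adjusted p = 0.755; 95% interval -8.10% to 24.2%). Leaving out 1 library moved it to between 0.040 (control replicate 3) and 0.192 (food-restricted replicate 2), with 0.161 when control replicate 2 was left out and 0.051 or 0.043 when food-restricted replicate 1 or 3 was. Grip1 held 178 to 483 reads per library. Helb, on the other strand, overlaps it with 87 to 243 reads, and the unconfirmed transcripts AC162467.3, AC162467.4 and AC158686.1, on its own strand, with 121 to 307, 52 to 182 and 38 to 155. These overlaps are of whole gene spans. Whether the exons overlap was not checked, so how far these genes bear on the Grip1 counts is not known.

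**Figure D2:**
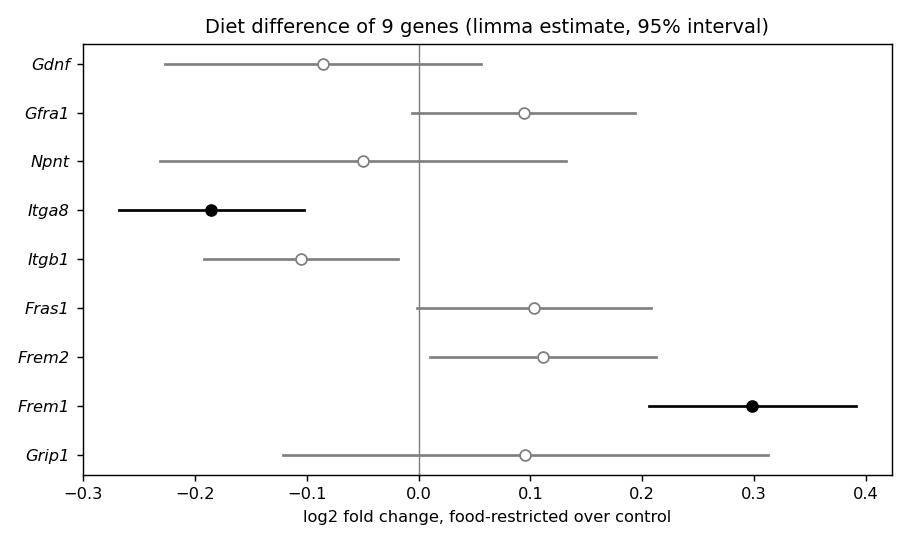
Log2 fold change (horizontal axis, food-restricted over control) of each gene except Ret with its 95% interval, black where the adjusted p was under 0.05. Only Frem1 at 0.30 and Itga8 at -0.19 are black. Ret, whose interval was the widest of the 10, is not drawn.

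The members were ordered by their mean normalized count per kilobase of exon over the 6 libraries. Itgb1 was highest at a mean of 965 (range 901 to 1025), followed by Itga8 at 608 (565 to 662) and Gfra1 at 458 (420 to 496). Gdnf at 245 (217 to 274) and Frem1 at 225 (192 to 253) came next, and they were the only neighbours whose ranges overlapped. In all 3 controls Gdnf was above Frem1, with 252 ± 18.8 against 202 ± 8.81 per kilobase, and in the food-restricted libraries the means were 238 ± 17.8 and 249 ± 7.72 (SD, n = 3 each). Frem1 was above Gdnf in food-restricted replicates 1 and 3, and Gdnf above Frem1 in replicate 2. Below them lay Frem2 at 166 (157 to 178), Fras1 at 124 (117 to 136), Npnt at 80.8 (77.5 to 83.5) and Grip1 at 35.5 (31.6 to 39.3). Ret was lowest at 0.938 (0.291 to 1.52).

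**Figure D3:**
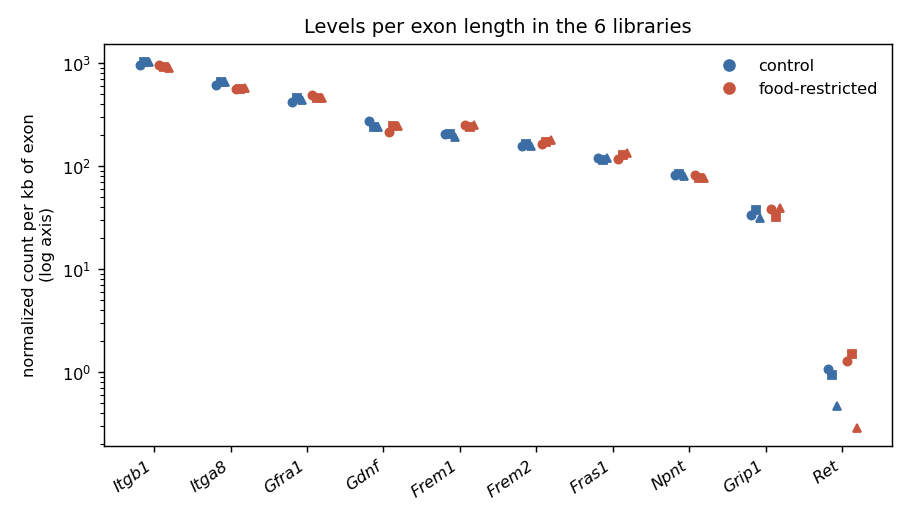
Normalized count per kilobase of exon (log axis) of the 10 genes in each of the 6 libraries, ordered by their mean. Itgb1 is highest at a mean of 965 and Ret lowest at 0.938, and Gdnf and Frem1 are the only neighbours whose libraries overlap.

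Within each library 10 ratios of normalized count + 1 were compared by a two-sided exact permutation test, whose smallest possible p with 3 against 3 libraries is 0.1. For 4 of the 10 the diets did not overlap, each at the smallest p of 0.1 (exact permutation) and an adjusted p of 0.25. Each of the 4 holds Itga8 or Frem1, the called members, so they are not results separate from those differences. Itga8 relative to Itgb1 was 1.17, 1.16 and 1.17 in the controls, against 1.07, 1.10 and 1.15 under food restriction. Itga8 RNA was thus lower against Itgb1 RNA in every food-restricted library, by 5.40% between geometric means of 1.17 and 1.10. The separation was narrow, with 1.147 in food-restricted replicate 3 against 1.158 in control replicate 2.

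Nephronectin relative to Itga8 was 0.0915, 0.0868 and 0.0824 in the controls, against 0.1004, 0.0933 and 0.0928 under food restriction, higher in all 3. Frem1 relative to Fras1 was 1.38, 1.40 and 1.247 in the controls, against 1.68, 1.45 and 1.47 under food restriction, again higher in all 3. Frem2 relative to Frem1 was 0.718, 0.755 and 0.777 in the controls, against 0.624, 0.684 and 0.668 under food restriction, lower in all 3. For the pair that GRIP1 carries, Frem2 relative to Fras1 had geometric means of 1.003 and 1.009 (exact permutation p = 0.8). Gdnf relative to Six2, the transcription factor of the progenitors, was 0.223 and 0.219 (exact permutation p = 0.6). Itga8 relative to Six2 was 1.04, 1.19 and 1.21 in the controls, against 1.09, 1.03 and 1.04 under food restriction (exact permutation p = 0.2). Control replicate 1 lay within the food-restricted values there. Gfra1 relative to Gdnf, Ret relative to Gfra1 and Grip1 relative to Fras1 also overlapped, at exact permutation p of 0.4, 1.0 and 1.0.

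**Figure D4:**
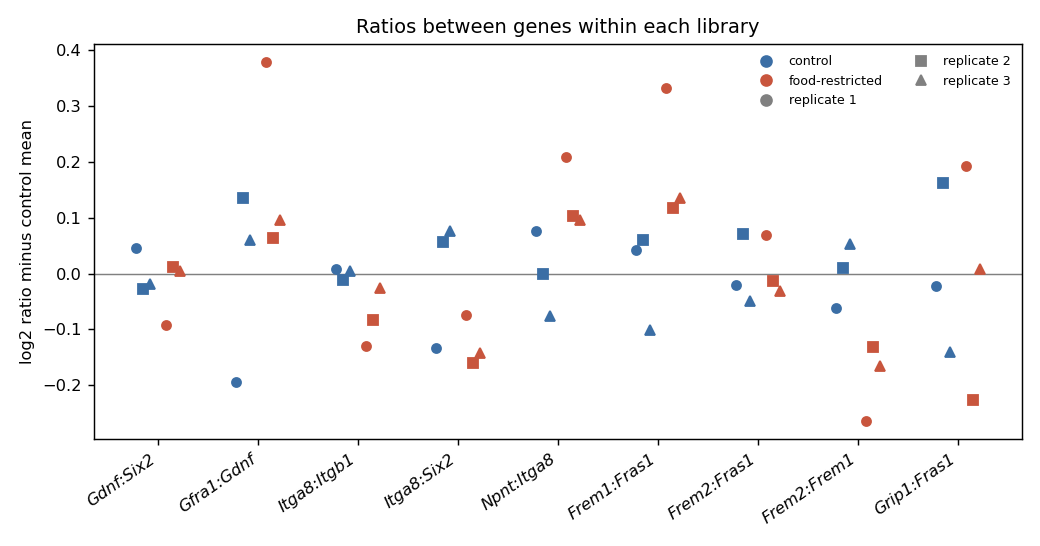
Within-library log2 ratios between pairs of genes, minus the control mean of each ratio, in the 3 control and 3 food-restricted libraries. The diets separate for Itga8:Itgb1, Npnt:Itga8, Frem1:Fras1 and Frem2:Frem1 and overlap for the other ratios drawn. Ret:Gfra1 is not drawn.

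Of 88 other genes of the pathway, 86 were tested and 11 were called, 8 higher and 3 lower. The share was 12.8%, against 4.74% of all genes, and the median log2 fold change was 0.06. All genes take in weakly expressed ones, and genes of like level were not compared. The lists were also chosen with earlier results of these data known, so these shares do not measure an enrichment of the pathway. The 11 became 7 without food-restricted replicate 3, and ranged from 7 to 16 over the alternatives. The 16 came with limma-voom (13 higher, 3 lower) and under scaling to the nephron progenitor markers (14 higher, 2 lower). By list, members included, the median log2 fold change was -0.05 for the mesenchymal regulators of Gdnf, 0.03 for the GDNF family, 0.06 for Ret targets and tip genes, 0.09 for Ret adaptors, 0.06 for α8β1 ligands, 0.24 for α subunits and 0.11 for the Fraser complex. Among 24 mesenchymal regulators of Gdnf, 3 rose and none fell. Pax2, a transcription factor that activates Gdnf, went from 3717 ± 108 to 4517 ± 302 (log2 0.28, limma adjusted p = 7.48e-06). Fat4, a protocadherin, went from 3753 ± 251 to 5173 ± 304 (log2 0.46, limma adjusted p = 5.34e-12). Foxc2, a forkhead factor, went from 497 ± 20.9 to 636 ± 83.3 (log2 0.35, limma adjusted p = 0.00579), and its adjusted p became 0.0738 when control replicate 1 was left out, 0.152 when food-restricted replicate 2 was, and 0.0754 when food-restricted replicate 3 was. The markers of committing nephrons summed to 6433 to 6767 in the controls and 7135 to 7442 in the food-restricted libraries, with Lhx1 and Lef1 called higher, and the stroma sums differed as given beside Frem1; their part in these 3 genes was not tested. None of the 11 tested genes of the GDNF ligand and receptor family was called. Among 14 Ret targets and bud tip genes 1 fell, Cxcr4, a chemokine receptor, from 819 ± 63.9 to 637 ± 45.2 (log2 -0.36, limma adjusted p = 8.67e-04). Ret itself had 38 reads in all, and the ureteric bud markers summed to 599 to 656 in the controls and 468 to 553 under food restriction. Which cells the Cxcr4 reads came from was not tested. No change in RET signalling can be read from this list or from the adaptors given next.

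Among 17 adaptors and effectors of RET signalling, Plcg1, a phospholipase, rose from 2859 ± 147 to 3428 ± 110 (limma adjusted p = 6.69e-05). Dok1, a docking protein, fell from 72.7 ± 15.1 to 42.0 ± 3.99 (limma adjusted p = 0.0371), and its adjusted p ranged from 0.0294 to 0.207 over the alternatives. Without control replicate 2 or 3 it was 0.207 or 0.192, and without food-restricted replicate 1, 2 or 3 it was 0.0550, 0.155 or 0.0915. Of 7 ligands of α8β1, Fn1, which encodes fibronectin, rose from 1328 ± 38.4 to 1720 ± 105 (log2 0.37, limma adjusted p = 5.33e-06). Spp1, which encodes osteopontin, fell from 98.7 ± 5.46 to 33.4 ± 10.2 (log2 -1.58, limma adjusted p = 1.16e-06). The ligands of one receptor therefore did not move one way. The proximal tubule and macrophage sums given above also differed between the diets, and their part in these genes was not tested.

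Of 12 α subunits that pair with β1, 2 rose and Itga8 alone fell. Itga4, an α subunit that leukocytes also carry, was 125 ± 23.7 and 205 ± 42.1 (log2 0.71, limma adjusted p = 8.38e-04), and its adjusted p was 0.0554 without control replicate 1 and 0.0856 without food-restricted replicate 3. Itga5, the fibronectin receptor subunit, was 375 ± 17.1 and 473 ± 33.2 (log2 0.33, limma adjusted p = 0.0165). Leaving out control replicate 1 or 3 gave it an adjusted p of 0.0554 or 0.0980, and leaving out food-restricted replicate 2 or 3 gave 0.166 or 0.0796. Of 11 genes of the Fraser complex and its partners, 2 rose: Frem1 and Hmcn1, an extracellular matrix protein, from 21493 ± 349 to 23886 ± 743 (log2 0.15, limma adjusted p = 1.36e-04). With the gene length trend removed the log2 value of Hmcn1 was 0.091 (limma adjusted p = 0.0384). Macrophage markers summed to 87.9 to 106 in the controls and 194 to 218 in the food-restricted libraries, and stroma markers to 3089 to 3140 and 3554 to 3828; their part in the α subunits and Hmcn1 was not tested.

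**Figure D5:**
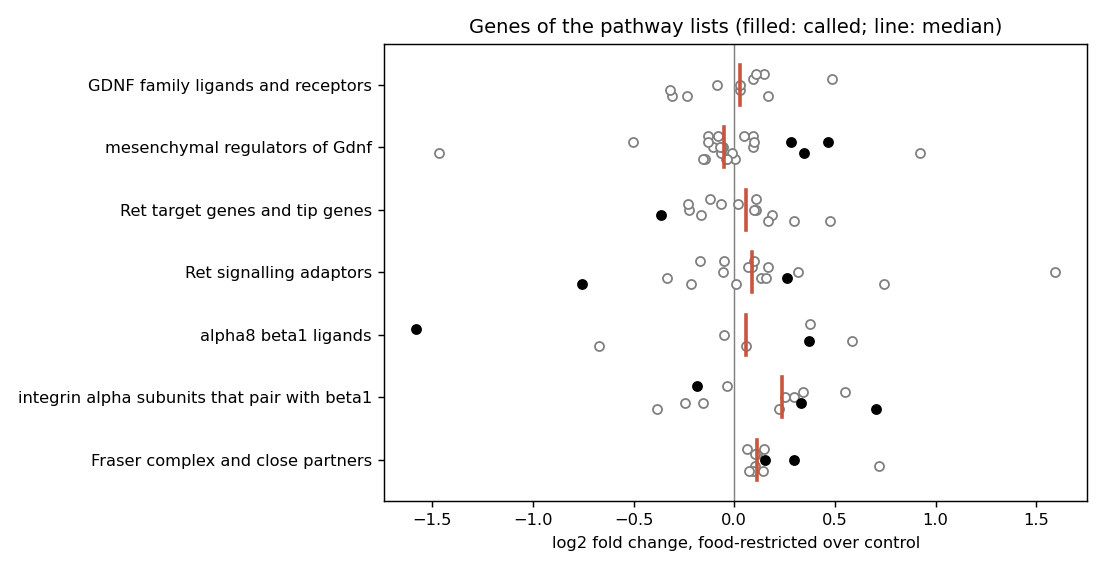
Log2 fold change (horizontal axis, food-restricted over control) of every tested gene of the 7 pathway lists, black where the adjusted p was under 0.05. Called genes lie on both sides of 0 among the Ret adaptors, the α8β1 ligands and the α subunits, and the GDNF family holds none.

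The genes whose log2 values followed those of a member most closely over the 6 libraries were sought among 9342 genes with a mean normalized count of at least 100, by Pearson's r. For Gdnf they were Rabep2 (0.999), Slc6a17 (0.988) and Nek4 (0.988), and 20 genes reached an r of 0.95. For Frem1 they were Hnrnpdl (0.997), Dtna (0.995) and Lrfn4 (0.993), and 112 genes reached 0.95. For Itga8 they were Magoh (0.9996), Lpar6 (0.996) and Pola1 (0.995), and 102 genes reached 0.95. These r values run over libraries of both diets and of unequal depth, so for Frem1 and Itga8 they take in the diet difference itself, and they are given as a description.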

How the data were processed

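The submitters' processing notes name TopHat2 2.1.1 and the build GRCm38, HTSeq 0.6.0, cutadapt 1.18, bcl2fastq 2.18.0.12 and DESeq2 1.22.1. The table deposited by the authors holds read counts, counts divided by a size factor (0.568 to 1.53), log2 fold changes, a test statistic (a score per gene) and p-values. Genes whose counts sum to 10 or more have normalized values. The test used R 4.3.3 and limma 3.58.1 (values plus 1 on a log2 scale, diet as the only term, mean-variance trend, Benjamini-Hochberg adjustment over 25157 genes). Marks for missing values in 6727 rows kept the read count columns from being declared as counts, so the planned edgeR and DESeq2 fits were not run. The alternatives with limma-voom, TMM and upper-quartile scaling did use the read counts. Levels per kilobase used GENCODE M21 exon lengths. The members and gene lists were chosen with earlier results of these data known. The genes named were the members, every called gene of the pathway lists, and the 3 genes most like Gdnf and each called member. Outside this rule, Six2 was named as a partner in ratios, and called cell type markers and genes overlapping a member were named after their values were seen. Total counts of 6515127 to 16763479 limit the precision of weakly expressed genes such as Ret. Same-numbered libraries did not deviate together, so replicate numbers were not used as pairs.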

Additional observations from a re-analysis of the deposited data

How the results depend on the processing

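In all 15 alternatives 2 members were called, 1 higher and 1 lower. The log2 fold change of Itga8 ranged from -0.21 to -0.15 (limma adjusted p 3.15e-04 to 0.0421) and that of Frem1 from 0.25 to 0.34 (1.19e-06 to 7.84e-04). Of 149 member values under alternatives, 145 kept their direction and their side of the threshold and 4 reversed, all of Ret: -0.17 with limma-voom, and a range of -0.25 to 0.72 when 1 library was left out; the cause was not tested. From raw reads, the log2 difference of Ret relative to Gfra1 was -0.027 in place of 0.013. The share of higher calls over all genes was 47.2%, and 65.8% under scaling to the summed nephron progenitor markers, an alternative chosen after seeing the data. The count over all genes ranged from 564 to 1357 when 1 library was left out. With a replicate block it was 980, with the same number of members called; the correlations of same-numbered libraries were -0.087, 0.014 and -0.036. The scalings moved the median of all genes by at most 0.040. The mean filter of 10 left out Ret. The planned edgeR and DESeq2 fits were not run, because marks for missing values kept the columns from being declared as counts. Depth limits Ret most.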
